A study of Mus musculus with 6 samples.

Results

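Col4a1, Col4a2, Lama4, Lama5, Lamb1, Lamb2, Lamc1, Nid1, Nid2 and Hspg2 encode the collagen IV, laminin, nidogen and perlecan chains of basement membranes such as the lens capsule. These 10 genes were chosen as basement membrane components by gene symbol. The choice did not use their measured values, though earlier results of these data were known. They were represented by 17 of the 45281 probes on a 1-colour Illumina bead array. Lama4 was not detected, and the other 9 genes were among the 9200 genes that could be tested. RNA came from 21EM15, an established epithelial line derived from the mouse lens. Cells of all 6 samples had received lentivirus. In the 3 control samples the construct held GFP, and the labels name no hairpin for it. In the 3 knockdown samples it encoded a hairpin RNA (shRNA) against Tdrd7, whose product is a Tudor domain component of RNA granules in the cytoplasm. The time after transduction, the promoters of the constructs and whether cells were cloned or pooled are not stated in the labels. Effects of the hairpin construct and of lower Tdrd7 cannot be told apart.

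The lens capsule is a thick basement membrane that encloses the lens. Its anterior part is laid down by the lens epithelium throughout life. Laminins, trimers of an alpha, a beta and a gamma chain, assemble first at the cell surface. Collagen IV, itself a trimer, forms a second network that gives mechanical strength. Nidogens bind both laminin and collagen IV, and perlecan, the product of Hspg2, carries heparan sulfate and binds growth factors.

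Array numbers follow the deposited scanner columns, so that arrays 1 to 3 are control and arrays 4 to 6 knockdown. Between 37.2% and 38.8% of probes were detected per array, with median intensities from 72.6 to 82.6 units. Array 4 stood apart from the rest. Over the genes tested it correlated with the other arrays at 0.957 on average, against 0.971 to 0.976 for the other 5, and the differences of the 9 genes and the list medians are given with and without it. The Tdrd7 probe was lower on all 3 knockdown arrays, at -1.85 ± 0.28 log2 units (SE, limma adjusted p = 0.76), and at -1.76 ± 0.31 without array 4. The line's label was checked against marker genes. Of 14 lens epithelium markers 9 could be tested, among them Aqp1, Cryab, Gja1, Six3 and Pax6. Foxe3 and Pitx3, transcription factors of the lens epithelium, were not detected on any array, and Cryaa, Maf and Cdh1 did not pass the detection filter. Of 9 lens fibre markers on the array, 0 could be tested, and 10 of 12 endothelial markers were not detected on any array. Of 12 fibroblast and mesenchymal markers 10 could be tested, Acta2 and Vim among them. The labels do not say whether replicates were separate cultures, so the spread between them may be technical.

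Col4a1 and Col4a2 form a head-to-head gene pair. Collagen IV chains are known to be encoded in such pairs, each with a shared promoter region. In the RefSeq annotation of GRCm38.p6 the spans of Col4a1 and Col4a2 overlapped by 85 bases at their 5′ ends on chromosome 8. A stretch of 30 bases is shown because it lies in the region where both genes start, on opposite strands. Its position is chr8:11312772-11312801 on the plus strand. It ends a few bases before the annotated start of Col4a2 and lies just inside the annotated span of Col4a1. Capitals mark a CCAAT box and a second motif, CCCTCCC.

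Col4a1-Col4a2: cCCAATttgttggcgctgccCCCTCCCctc

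RefSeq promoter windows of 300 bases, 250 before and 50 after the start, were at hand for 7 of the 10 genes. They were searched on both strands for 4 short motifs, whose matches may overlap. The CCAAT box was present in the windows of 4 of the 7 genes and in 37.4% of all 32851 mouse windows of this length. The motif CCCTCCC was present for 5 of the 7 genes and in 22.0% of all windows. The GC box GGGCGG was present for 6 genes and in 35.7% of windows. The TATA element, searched as TATAA, was present for 2 genes and in 24.9% of windows. All windows were counted without regard to detection in these cells, so the shares are not a matched background. Printed below are the upstream bases of Lamb2 and Hspg2, which lay in no other annotated gene and differ in these motifs. Lamb2 at chr9:108479612-108479846 (plus strand) had the TATA element on both strands and none of the other 3 motifs. Hspg2 at chr4:137468553-137468750 (plus strand) had 5 copies of the GC box, 1 of them overlapping a match to the second motif. Capitals mark these matches, which describe the letters and are no evidence of binding.

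Lamb2: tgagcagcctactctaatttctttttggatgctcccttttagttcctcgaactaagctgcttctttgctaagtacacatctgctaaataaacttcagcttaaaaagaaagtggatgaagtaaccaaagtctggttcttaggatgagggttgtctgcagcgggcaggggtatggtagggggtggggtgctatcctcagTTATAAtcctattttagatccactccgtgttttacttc

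Hspg2: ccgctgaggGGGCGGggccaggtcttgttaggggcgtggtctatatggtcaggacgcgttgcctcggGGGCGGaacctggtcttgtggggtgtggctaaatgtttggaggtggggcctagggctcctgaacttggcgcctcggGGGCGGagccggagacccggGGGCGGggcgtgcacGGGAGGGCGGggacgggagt

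The comparison asks whether transcripts of basement membrane components differ between Tdrd7 knockdown and control lens cells. None of the 9 tested genes passed an adjusted p of 0.05 in limma, in a fit where 0% of the 9200 genes were called in either direction. Their adjusted p-values were all 0.998, and the lowest unadjusted p was 0.11, for Lamb1, where 3.29% of all genes had an unadjusted p under 0.05. In a fit of single probes in place of genes, 0 of the 12 detected probes of these genes passed, against 0.00612% of all 16349 probes. In RNA from whole cultures, fewer cells that make a transcript and less of it per cell cannot be told apart. All 9 fitted changes were positive, from 0.10 for Hspg2 to 0.36 for Col4a2, with a median log2 fold change of 0.23. Over all genes tested, 52.3% had a positive fitted change and the median was 0.01. Without knockdown array 4 the changes were positive for 6 and negative for 3 of the 9 genes, against 53.2% positive over all genes, and the median of the 9 fell to 0.02. The array values below are normalized log2 intensities of the brightest probe of a gene. As probes differ in brightness, levels are compared between arrays and not between genes.

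**Figure D1:**
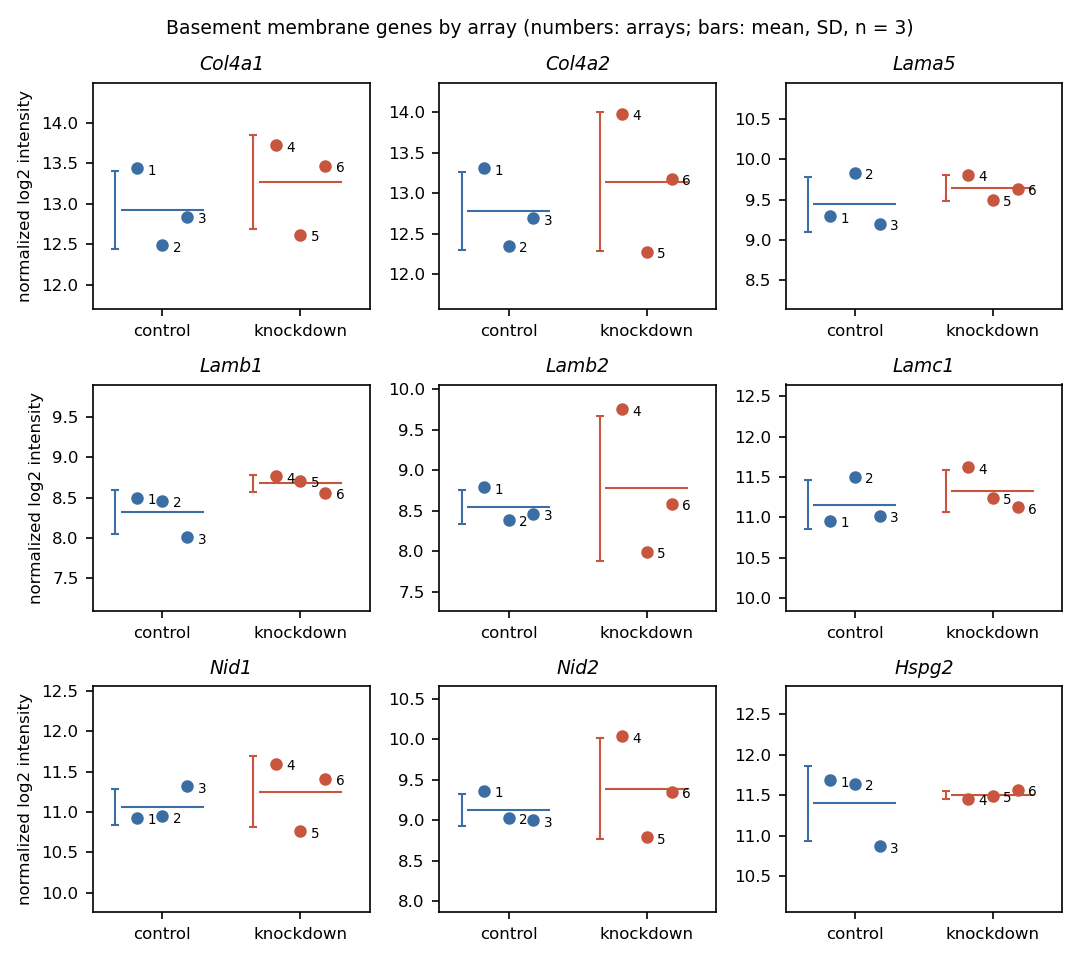
Normalized log2 intensity of the 9 tested basement membrane genes on the 3 control (blue) and 3 knockdown (red) arrays, with array numbers beside the points, the group mean as a line and the SD as a bar. Every panel spans 2.8 log2 units. Array 4 is the highest point for 7 of the 9 genes, and the groups overlap for all but Lamb1.

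Col4a1 encodes a chain of the collagen IV trimer found in nearly all basement membranes. The scanner intensities of its probe (ILMN_2621643) were 12695, 5051 and 6588 on the control arrays. On the knockdown arrays they were 15478, 7360.2 and 8608. After normalization the control arrays stood at 13.44, 12.48 and 12.84 and the knockdown arrays at 13.72, 12.62 and 13.46 log2 units. Arrays 1, 4 and 6 were high and arrays 2 and 5 low, so that the groups overlapped. The difference of 0.35 ± 0.34 (SE) was smaller than the SD within either group, 0.48 in control and 0.58 in knockdown (n = 3). Its 95% confidence interval ran from -0.44 to 1.14 log2 units, from 0.735-fold to 2.20-fold of control. Without array 4 it was 0.12 ± 0.35.

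Col4a2 encodes the partner chain of the same trimer. Its probe (ILMN_2822579) had scanner intensities of 11660, 4669.9 and 5876 in control and 18307, 5813 and 7055 in knockdown. The normalized values were 13.31, 12.35 and 12.69 in control and 13.98, 12.27 and 13.18 in knockdown. Array 4 was the highest of the 6 and array 5 the lowest, both of them knockdown arrays. The difference was 0.36 ± 0.43 log2 units (SE, interval -0.63 to 1.35). It became -0.06 ± 0.36 without array 4. The spread of Col4a2 within groups, an SD of 0.70, was larger than for 95.5% of the genes tested, and that of Col4a1, 0.53, larger than for 89.1%. The median gene had 0.27.

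The pair moved together from array to array. Relative to each gene's mean over the 6 arrays, Col4a1 and Col4a2 were at 0.34 and 0.34 on array 1, -0.61 and -0.61 on array 2, and -0.26 and -0.27 on array 3. On the knockdown arrays they were at 0.63 and 1.02, -0.48 and -0.69, and 0.37 and 0.21. The control arrays thus gave nearly equal deviations for both genes. The gap between them was widest on array 4, where Col4a2 lay 0.39 further above its mean. Over the 6 arrays the root mean square (RMS) difference between the deviations was 0.19 log2 units, and of the 8 other tested members each gene of the pair had the other as its nearest. Such closeness was not particular to this pair. The RMS difference was 0.11 for Lama5 and Lamc1, 0.17 for Lamb2 and Nid2 and 0.19 for Lamb1 and Hspg2. The likeness is a description of these 6 samples, and its cause was not tested.

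**Figure D2:**
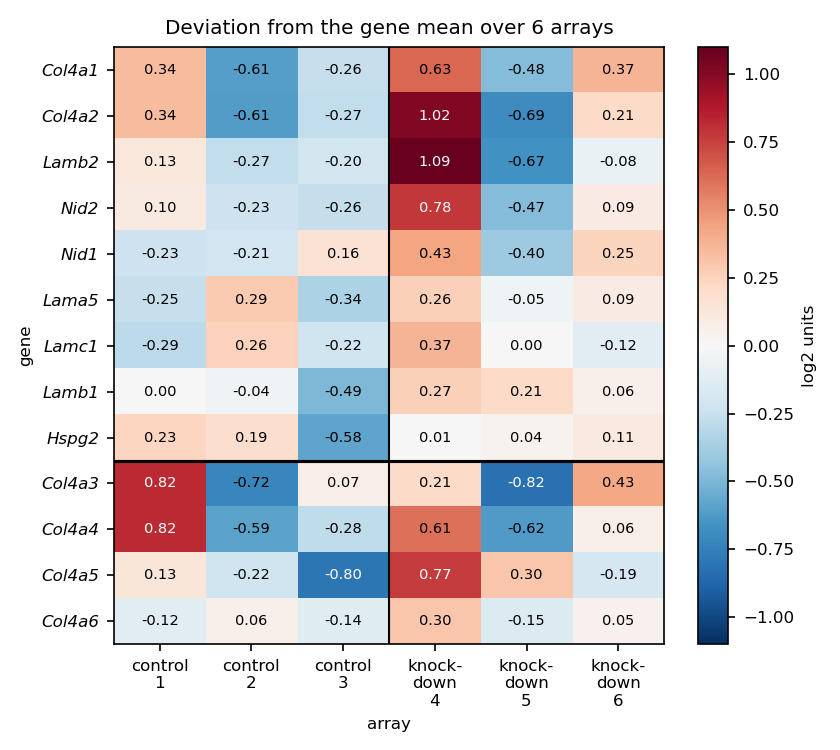
Deviation of each gene from its own mean over the 6 arrays, in log2 units, with the 9 tested basement membrane genes above the line and the 4 other collagen IV genes below it. Col4a1, Col4a2, Lamb2 and Nid2 share high values on array 4 and low values on arrays 2 and 5, while Lama5 and Lamc1 are high on arrays 2 and 4 and low on arrays 1 and 3.

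The other collagen IV genes were compared as a reference for pair behaviour. Col4a3 and Col4a4, chains of kidney glomerular and ocular basement membranes, overlap head to head by 114 bases on chromosome 1. Both were detected on all 6 arrays. On array 1 they lay 0.82 above their means, on array 2 they were at -0.72 and -0.59 and on array 5 at -0.82 and -0.62. They lay further apart on array 3, at 0.07 and -0.28, on array 4, at 0.21 and 0.61, and on array 6, at 0.43 and 0.06. The RMS difference of this pair was 0.28. Col4a5 and Col4a6 on chromosome X are separated by 1274 bases, and their RMS difference was 0.42. Their SDs within groups were unequal, at 0.47 for Col4a5 and 0.18 for Col4a6, which also enters this difference. A part of the distance between the genes was not tested. Col4a5 had the largest fitted difference of the 6 collagen IV genes, at 0.59 ± 0.31 log2 units (SE, limma adjusted p = 0.998). Its control arrays ranged from 9.36 to 10.29 and its knockdown arrays from 9.97 to 10.92, so the groups overlapped. Col4a3 was at -0.12 ± 0.44, Col4a4 at 0.03 ± 0.42 and Col4a6 at 0.13 ± 0.19.

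Among laminin alpha chains, Lama4, a chain of vascular and mesenchymal basement membranes, was not detected. Its 5 probes gave 58.0 to 94.2 intensity units over all arrays, with a lowest detection p of 0.090. Lama5, the alpha chain of most adult epithelial basement membranes, was read by 1 probe (ILMN_2640248). Its control arrays stood at 9.29, 9.83 and 9.20 and its knockdown arrays at 9.80, 9.49 and 9.63. The knockdown values lay within the range of the control values. The difference was 0.20 ± 0.22 log2 units (SE, interval -0.30 to 0.70), and 0.12 ± 0.24 without array 4. Lama1, known as the alpha chain of the embryonic lens capsule, was not detected on any array.

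The beta chains behaved differently from each other. Lamb1 (ILMN_1253659), the beta chain of most laminin trimers, stood at 8.49, 8.46 and 8.01 on the control arrays and at 8.76, 8.71 and 8.56 on the knockdown arrays. It was the only one of the 9 genes whose groups did not overlap, and its lowest knockdown array lay 0.06 above its highest control array. Over all genes tested, 4.33% had every knockdown array above every control array. The difference was 0.35 ± 0.20 log2 units (SE, limma adjusted p = 0.998, interval -0.10 to 0.80), a 1.28-fold change, and it was 0.31 ± 0.21 without array 4. Control array 3 was the low value, and without it the difference was 0.20.

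Lamb2 (ILMN_2699488), the beta chain of neuromuscular, kidney and vascular basement membranes, varied more within the knockdown group than between groups. It was at 8.79, 8.39 and 8.46 in control and at 9.75, 7.99 and 8.59 in knockdown. Array 4 lay above and array 5 below all 3 control arrays. The SD was 0.21 in control and 0.90 in knockdown, and the spread within groups exceeded that of 94.3% of genes tested. The difference of 0.23 ± 0.41 log2 units (SE, interval -0.70 to 1.17) turned to -0.26 ± 0.24 without array 4.

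Lamc1 encodes the gamma chain shared by most laminins and had 2 probes. The brighter (ILMN_2774596) was at 10.96, 11.50 and 11.02 in control and 11.62, 11.24 and 11.12 in knockdown. The difference was 0.17 ± 0.22 log2 units (SE, interval -0.35 to 0.68), and 0.02 ± 0.22 without array 4. The second probe (ILMN_2974798) was at 0.29 ± 0.23. Array 4 was the highest and arrays 1 and 3 were the lowest on both probes, and the groups overlapped on both.

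Lama5 and Lamc1 are an alpha and a gamma chain known to join in the same trimers. By the brightest probe of each gene, they were the closest pair among the 9 genes. Their deviations differed by an RMS of 0.11 log2 units over the 6 arrays. The second Lamc1 probe was not compared in this way, so the rank holds for the brighter probe. On arrays 1 to 3 Lama5 was at -0.25, 0.29 and -0.34 and Lamc1 at -0.29, 0.26 and -0.22. On arrays 4 to 6 they were at 0.26, -0.05 and 0.09 and at 0.37, 0.00 and -0.12. Array 2, low for both collagen IV genes, was high for this pair. The RMS distance of each of them from Col4a2 was 0.60.

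Nidogens link the laminin and collagen IV networks. Nid1 (ILMN_2814005) was at 10.93, 10.94 and 11.32 in control and at 11.59, 10.76 and 11.41 in knockdown. The difference was 0.19 ± 0.25 log2 units (SE, interval -0.39 to 0.77), and 0.02 ± 0.25 without array 4. A second, dim Nid1 probe (ILMN_2560756), with intensities from 78.7 to 152 units and detected on 2 of the 3 knockdown arrays, gave -0.45 ± 0.46. The 2 probes thus disagreed in sign, with both intervals across 0, and the mean of the probes gave -0.13 for Nid1.

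Nid2 (ILMN_2961933), the second nidogen, was at 9.36, 9.03 and 8.999 in control and at 10.04, 8.79 and 9.35 in knockdown. As with Lamb2, array 4 was the highest and array 5 the lowest of the 6. The difference was 0.26 ± 0.31 log2 units (SE, interval -0.45 to 0.97), and -0.06 ± 0.23 without array 4. Lamb2 was its nearest member, with an RMS difference of 0.17.

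Hspg2 encodes the core protein of perlecan. Its brighter probe (ILMN_2685329) was at 11.69, 11.64 and 10.87 in control and at 11.46, 11.49 and 11.56 in knockdown. The knockdown arrays lay within 0.11 log2 units of each other and between the lowest and the 2 highest control arrays. The difference of 0.10 ± 0.24 (SE, interval -0.46 to 0.67) was the smallest of the 9, and 0.13 ± 0.28 without array 4. It changed to -0.16 without control array 3, the low control value. The second probe (ILMN_2520249) was at 0.35 ± 0.27, with intensities of 2903, 2089 and 1157 in control and 3292, 2982 and 1727 in knockdown. On array 4 the brighter Hspg2 probe stood 0.01 from its mean. The second probe was highest on array 4, at 11.37 log2 units, against 10.32 to 11.30 on the other arrays.

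**Figure D3:**
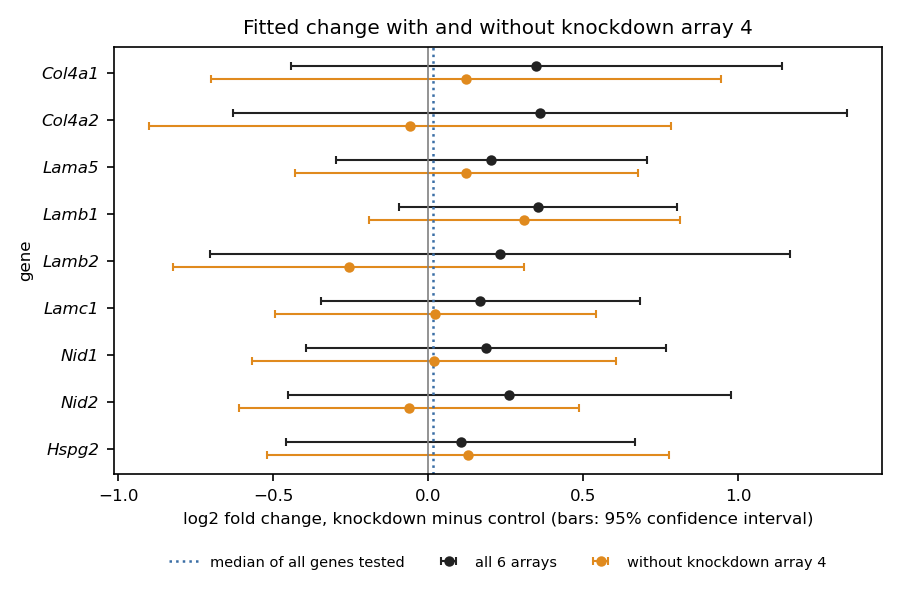
Log2 fold change, knockdown minus control, of the 9 tested genes with 95% confidence intervals, from all 6 arrays (black) and without knockdown array 4 (orange). The dotted line is the median of all genes tested. Every interval crosses 0, and Col4a2, Lamb2 and Nid2 lie below 0 without array 4.

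Array 4 was the highest of the 6 arrays for 7 of the 9 genes, where it was the highest for 27.0% of all genes tested. The mean deviation of the 9 genes was 0.54 log2 units on array 4, against -0.28 on array 5 and 0.11 on array 6. It was 0.04, -0.14 and -0.28 on control arrays 1 to 3. All 9 genes lay above their own mean on array 4, 2 on array 5 and 7 on array 6. For Col4a2 and Lamb2, knockdown arrays 4 and 5 lay 1.71 and 1.76 log2 units apart. Leaving out array 5, the lowest knockdown array, raised the median log2 fold change of the 9 genes to 0.43, and leaving out control array 1 raised it to 0.35.

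The 5 genes closest to the mean profile of Col4a1 and Col4a2 over the 6 arrays were Phactr1, Gpsm1, Arhgap28, Galnt17 and Prkg1. Their RMS differences ran from 0.11 to 0.14 log2 units, against a median of 0.58 for the 9198 other genes tested. Phactr1, the closest, was at 8.91, 8.15 and 8.67 in control and at 9.59, 8.13 and 8.98 in knockdown. In the same ranking Nid2 came 23rd and Lamb2 63rd, with 0.21 and 0.25. Nid1 had 0.38 and Lamb1 0.50, while Lama5, Hspg2 and Lamc1 lay between 0.55 and 0.56, near the median gene. As an RMS difference also depends on how much each gene varied, these distances are not a graded measure of likeness.

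Other genes of the basement membrane were described from lists by role. As a reference for the counts of each list, 52.3% of all genes tested lay above control. Of 18 further matrix proteins 9 were tested, 6 above and 3 below control, with a median of 0.15. Sparc, a collagen IV binding matrix protein, was at 0.15 ± 0.22 (SE), and Agrn, a heparan sulfate proteoglycan, at -0.07 ± 0.24. Tinagl1, a matricellular protein of basement membranes, was the only one of these 9 without overlap, at -0.33 ± 0.19, where 3.5% of all genes lay below control without overlap. The median of the list turned to -0.03 without array 4 and to -0.0202 with no detection filter. Of 10 other collagen IV and laminin chains, 4 were tested, 3 above and 1 below control, with a median of 0.08. That median turned to -0.12 without array 4, -0.03 without control array 2 and -0.000968 without control array 3, and rose to 0.36 when control array 1 was left out.

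With all 6 arrays, receptors for laminin and collagen IV did not all share the positive direction of the 9 genes. Without array 4 that direction held for 6 of the 9 genes. Of 13 receptor genes tested, 8 lay above and 5 below control, where 52.3% of all genes lay above, with a median of 0.06. It was -0.12 without array 4, -0.0062 without control array 2 and -0.02 without control array 3. With all arrays kept, the median was -0.112 when a gene's probes were averaged and -0.145 when every probe was fitted by itself. With array weights it was -0.0196, and under the remaining alternatives that kept all arrays it stayed positive. Itgb4, the integrin subunit that binds laminin in hemidesmosomes, had the largest difference, at -0.86 ± 0.18 log2 units (SE, limma adjusted p = 0.98). It was at 8.20, 8.42 and 8.54 in control and at 7.64, 7.38 and 7.56 in knockdown, without overlap. Cd151, a tetraspanin partner of laminin-binding integrins, was the only other receptor gene without overlap and was named after its values were seen, at -0.75 ± 0.22 (limma adjusted p = 0.998). Over all genes tested, 3.5% had every knockdown array below every control array. Itgb1, the common beta subunit, was at 0.09 ± 0.19 and Dag1, the dystroglycan gene, at 0.06 ± 0.20.

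Genes of collagen and basement membrane assembly, among them enzymes and chaperones, were spread around 0. Of 16 tested, 9 lay above and 7 below control, with a median of 0.01 and a range from -0.47 for Crtap to 0.34 for Tmem38b. The median lay between -0.10 without array 4 and 0.12 without array 5 when each array was left out. With array weights it was -0.0289. Serpinh1, the collagen chaperone, varied little, with 0.04 log2 units of SD within groups and a difference of -0.06 ± 0.16 (SE). Ctage5, a partner in collagen export, was above control without overlap at 0.27 ± 0.17. Pxdn, the peroxidase that cross-links collagen IV, was below without overlap at -0.28 ± 0.17. Over all genes tested, 4.33% lay above and 3.5% below control without overlap. Of 10 tested proteases and inhibitors, 7 lay above and 3 below control, with a median of 0.07. It turned to -0.13 without array 4, -0.04 without array 6 and -0.0151 with array weights, and was 0.33 without array 5. In these 5 lists, 0 genes passed an adjusted p of 0.05 in limma.

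Of the fibroblast and mesenchymal markers, all 10 tested lay above control, where 52.3% of all genes did, and 0 passed in limma. Their median was 0.61 over all arrays and 0.47 without array 4, where the median of the 9 basement membrane genes fell to 0.02. Postn, a matrix protein of mesenchyme, was the only one without overlap, at 1.12 ± 0.39 log2 units (SE, limma adjusted p = 0.998), against 4.33% of all genes above control without overlap. The summed normalized signal of this list was 61430 to 71730 on control and 64200 to 85700 on knockdown arrays. Col1a2 and Lum were not detected on any array. Lens epithelium markers had 3 of 9 above control, with a median of -0.16, and -0.04 without array 4. They summed to 46100 to 48150 in control and 42220 to 48000 in knockdown. Sox2 was the only one of these without overlap, at -0.50 ± 0.22, against 3.5% of all genes below control without overlap. Pax6, a transcription factor of eye development named after its values were seen, had the largest difference of this list, at 1.00 ± 0.33 (limma adjusted p = 0.998), and its groups overlapped. The summed signal of the 9 basement membrane genes was 21140 to 30540 in control and 20100 to 41960 in knockdown. Reference genes had a median of -0.07 over 10 genes, 0.06 without array 4 or without control array 1, and 0.0328 with array weights. Both tested endothelial markers, Flt1 and Ramp2, lay below control, with a median of -0.60, and -0.27 without array 4. With no detection filter the median of the endothelial list was -0.0298. Ramp2 was without overlap at -0.71 ± 0.20. The part of these marker genes in the values of the basement membrane genes was not tested.

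**Figure D4:**
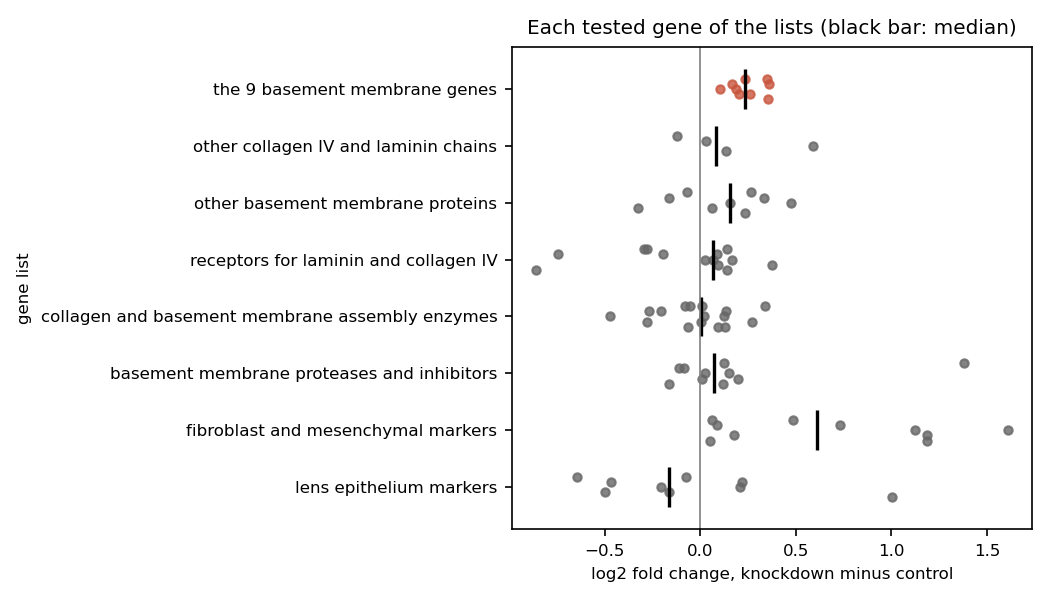
Log2 fold change, knockdown minus control, of every tested gene in 8 gene lists, with the list median as a black bar. The 9 basement membrane genes lie between 0.10 and 0.36, while the receptors reach -0.86 (Itgb4) and the fibroblast and mesenchymal markers lie between 0.05 and 1.61.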

How the data were processed

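The authors deposited a scanner table that holds, per the file headers, the linear intensity of each probe on each array and its detection p-value, and a second table of intensity values with unstated processing. Per the labels' protocols, biotinylated cRNA was hybridised to Illumina arrays. The scanner software is not stated. Scanner columns name the group and not the replicate. All columns of sample values were used.

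Intensities were background corrected, quantile normalized and log2 transformed by neqc (limma 3.58.1, R 4.3.3, offset 16), which understates the fold changes of dim genes. Probes with detection p under 0.05 on all 3 arrays of a group entered (16349), named from the platform annotation, and a gene was its probe with the highest mean. Groups were compared with lmFit and eBayes, with Benjamini-Hochberg adjustment over 9200 genes at 0.05 and 95% confidence intervals. The number of arrays limits the precision. The fit was tested on simulated data. RMS differences compare log2 values centred per gene, and so also depend on how much each gene varied.

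The genes and lists were chosen with earlier results of these data known. All 10 genes and Tdrd7 were named whatever their values. In each list the rule named the gene with the largest difference in each direction among those without overlap, and the 5 genes nearest to the collagen IV pair. Other list genes were named after their values were seen. Alternatives covered background, normalization, filter, probe choice, variance, array weights, the authors' values, the replicate block and each array left out. Figures used matplotlib 3.10.9 in Python 3.11.15. Sequences are from RefSeq (GRCm38.p6).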

Additional observations from a re-analysis of the deposited data

How the results depend on the processing

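None of the 9 basement membrane genes passed the adjusted threshold under any of the 18 alternatives run, and the lowest limma adjusted p of any of them was 0.54. Tdrd7, the target of the hairpin, did not pass under any alternative either, with a lowest limma adjusted p of 0.135. Not passing therefore does not show that the 9 genes were unchanged. The median log2 fold change of the tested genes was 0.23, between 0.22 and 0.28 under the 12 alternatives that kept all arrays, and between 0.02 and 0.43 when each array was left out in turn. The number of genes changed over the whole array was 0, and 1, which has no gene name, when every probe was fitted by itself. It was 0 each time an array was left out. Signs turned for Col4a2, Lamb2 and Nid2 without knockdown array 4 and for Hspg2 without control array 3, and the cause was not tested. Over the fits that left out an array, Col4a2 ranged from -0.0588 to 0.796, Lamb2 from -0.256 to 0.624, Nid2 from -0.0626 to 0.563 and Hspg2 from -0.161 to 0.247. Nid1 was at -0.133 when its probes were averaged, since the dim second probe then enters. Apart from these, the members kept their direction in all runs. Scanner columns carry no replicate number, so the fit with a replicate block used the processed values of the authors. With the replicate block 0 genes changed, the median of the 9 genes was 0.22, Col4a1 was at 0.35 ± 0.14 (limma adjusted p = 0.93) and Lamb1 at 0.29 ± 0.11 (limma adjusted p = 0.93). The deviations of samples with the same number had correlations of -0.12, 0.12 and 0.59, which is short of the rule for a pairing. Slide as a block was not run because the files name no slide.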
